A study of Mus musculus with 4 samples.

Results

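Ttr, Enpp2, Kl, Folr1, Clic6 and Sostdc1 are 6 of the 32285 genes in the count tables, and all 6 are transcripts of choroid plexus epithelium. They were chosen by name, with earlier results of these data known, for their counts inside choroid plexus barcodes and their background in every other cell class. That contrast is therefore given as a description. The study measured single-cell RNA in wild-type (WT) mice, in the hippocampus and in the sensory cortex, by droplet sequencing of transcript 3′ ends. Mice of 1 group had received DOCA-salt, which is deoxycorticosterone acetate given with salt to raise blood pressure, and mice of the other group were sham-treated. Each tissue and treatment is represented by 1 library, the labels give 3 mice per group, and whether these mice were pooled is not stated. Age and sex were not given in the sources used here.

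Titles decided the groups. In 2 libraries the treatment field says the opposite: the DOCA-salt cortex library has sham there, and the sham hippocampus library has DOCA-salt. Every direction between treatments below rests on the titles. With 1 library per group there is no test. Intervals (95%) cover the counting error of unique molecular identifiers (UMIs), not differences between mice or dissections.

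Choroid plexus epithelium is the secretory sheet of cells that lines the choroid plexus of the brain ventricles and produces cerebrospinal fluid. Transthyretin is its best-known product in the brain, and the other members encode enzymes, receptors and secreted regulators of the same epithelium or of the fluid. Because the plexus of the lateral ventricle lies against the hippocampus, it can be carried along in a dissection of that tissue.

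The libraries held 11159 to 11402 barcodes and 66824217 to 70173987 UMIs each, and 10349 to 10761 barcodes were kept. Cell classes were assigned from marker genes that include no member. A barcode was placed in a class when at least 3 of its markers stood above a background rate. That rate was taken over barcodes of the same library with few markers of the class. Between 94 and 105 barcode sequences were shared by each pair of libraries. Of the shared barcodes, 3, 3 and 2 were choroid plexus barcodes of the hippocampus sham library in its pairs with hippocampus DOCA-salt, cortex DOCA-salt and cortex sham, and they carried 3, 4 and 5 Ttr UMIs in all in those other libraries.

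The hippocampus sham library stood apart from the other 3 in its choroid plexus. It held 225 choroid plexus barcodes, 2.11% of those kept (exact binomial interval 1.85 to 2.40%), and 50 more carried markers of choroid plexus and of another class. In hippocampus DOCA-salt there were 2 choroid plexus barcodes, and in cortex sham there was 1. A further barcode of hippocampus DOCA-salt, with 3 choroid plexus and 8 ependymal markers, held 0 Ttr among 15729 UMIs. In cortex DOCA-salt none was kept, which allows a share of up to 0.0279% at 3 counts, or 0.0343% by the exact binomial interval, and 1 had been removed as a called doublet.

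The class was checked against its markers. Of the 225 barcodes, Kcnj13 and Prlr were each detected in 207, Kcne2 in 179, Otx2 in 159 and Cldn2 in 130. Prlr encodes the prolactin receptor, Kcne2 and Kcnj13 potassium channel subunits, Otx2 a transcription factor and Cldn2 a tight junction protein. Of the ependymal markers, Dynlrb2 was found in 143 and Foxj1 in 94 of these barcodes, and with Mia, Ak7 and Hydin they stood above their CPM in the other classes. Ccdc153 (10 barcodes), Tmem212 (11) and Rarres2 stood below theirs. The oligodendrocyte marker Mobp was found in 201 of them, at 369.6 UMIs per 1000000 UMIs of the class (CPM) against 2548 CPM in the other classes. The part of these other cells' RNA in the values below was not tested.

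The rows of the members were checked on GRCm38 with GENCODE vM21, since a row that shared its 3′ end with another gene could carry that gene's UMIs. Enpp2 (ENSMUSG00000022425) lies on chr15:54838901-54952892, minus strand. Kl (ENSMUSG00000058488) lies on chr5:150952607-150993817, plus strand, and Folr1 (ENSMUSG00000001827) on chr7:101858331-101870788, minus strand. Clic6 (ENSMUSG00000022949) lies on chr16:92485736-92541243, plus strand, and Sostdc1 (ENSMUSG00000036169) on chr12:36314139-36318452, plus strand. In the last 300 transcript bases, 51 of 270 words of 31 bases in Kl also occurred in another gene, and none did in the other 5 members. The small counts of Folr1 and Clic6 outside the choroid plexus, described further on, depend on their rows being distinct. After the coding end come 133 transcript bases in Folr1 and 1647 in Clic6. The Clic6 coding end therefore lies outside the 300 bases checked and says nothing about the part counted. Both coding ends are shown only to identify the transcripts. Each is the final 60 coding bases on the gene's own strand, 5′ to 3′, with the stop codon in capitals.
Folr1: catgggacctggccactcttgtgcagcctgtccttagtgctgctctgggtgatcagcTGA
Clic6: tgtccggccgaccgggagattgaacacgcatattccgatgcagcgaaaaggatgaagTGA

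Folr1 overlaps Anapc15 on the other strand, Enpp2 overlaps Gm26684 on the other strand, and Clic6 overlaps 2410124H12Rik on its own strand. Whether counting used strand is not given in the sources used here. Cortical microglia held 380 and 327 UMIs of Anapc15 (DOCA-salt and sham) and 0 of Folr1 in both libraries. 2410124H12Rik was at 0 UMIs in the choroid plexus, ependymal, astrocyte, oligodendrocyte, microglia and endothelial classes of every library.

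Inside choroid plexus barcodes of the hippocampus sham library, Ttr alone made up 277766 CPM (27.8% of their UMIs). Ttr encodes transthyretin, the carrier of thyroxine and of retinol-binding protein in cerebrospinal fluid. The gene (ENSMUSG00000061808) lies on chr18:20665280-20674321, plus strand, in GRCm38. Over the other classes together it stood at 3501 CPM, 79.3-fold lower (78.9 to 79.7). The 2 choroid plexus barcodes of hippocampus DOCA-salt held 2950 and 2886 Ttr UMIs, 42.8% and 30.8% of their own UMIs. The single barcode of cortex sham held 945, which was 3.17% of a barcode of 29803 UMIs. Only that barcode lay below the range of the 225 hippocampus sham barcodes, in which Ttr took from 4.31% to 54.0% of UMIs with a median of 26.3%.

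Enpp2 encodes autotaxin, the secreted enzyme that makes lysophosphatidic acid (LPA), and is a gene of oligodendrocytes as well. It stood at 11026 CPM in choroid plexus barcodes of hippocampus sham, 10.96-fold over the other classes. The 2 choroid plexus barcodes of hippocampus DOCA-salt gave 12784 CPM from 208 UMIs. Kl encodes klotho, the co-receptor for FGF23, and stood at 533 CPM, 146-fold over the other classes (126 to 170). These 2 genes were thus far apart in how much of them lay outside the epithelium.

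Folr1 encodes folate receptor alpha, which carries folate across this epithelium, and stood at 890.2 CPM, 133-fold over the other classes (119 to 148). Clic6 belongs to the chloride intracellular channel family and stood at 460.3 CPM, 141-fold higher (121 to 166). Sostdc1 encodes a secreted antagonist of BMP and Wnt signals and stood at 643 CPM, 193-fold higher (166 to 226). All 6 members passed 2-fold here, where 11.2% of the 16575 genes tested were at least 2-fold higher, and this contrast is the one by which the members were chosen.

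Detection within the 225 barcodes differed among the members. Ttr was present in all 225 and Enpp2 in 224. Folr1 was detected in 211 (93.8%), Kl and Sostdc1 in 195 each (86.7%) and Clic6 in 189 (84.0%). The median barcode held 1925 Ttr UMIs (168 to 22447), against 93 of Enpp2, 6 of Folr1, 5 of Kl, 4 of Sostdc1 and 3 of Clic6.

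**Figure D1:**
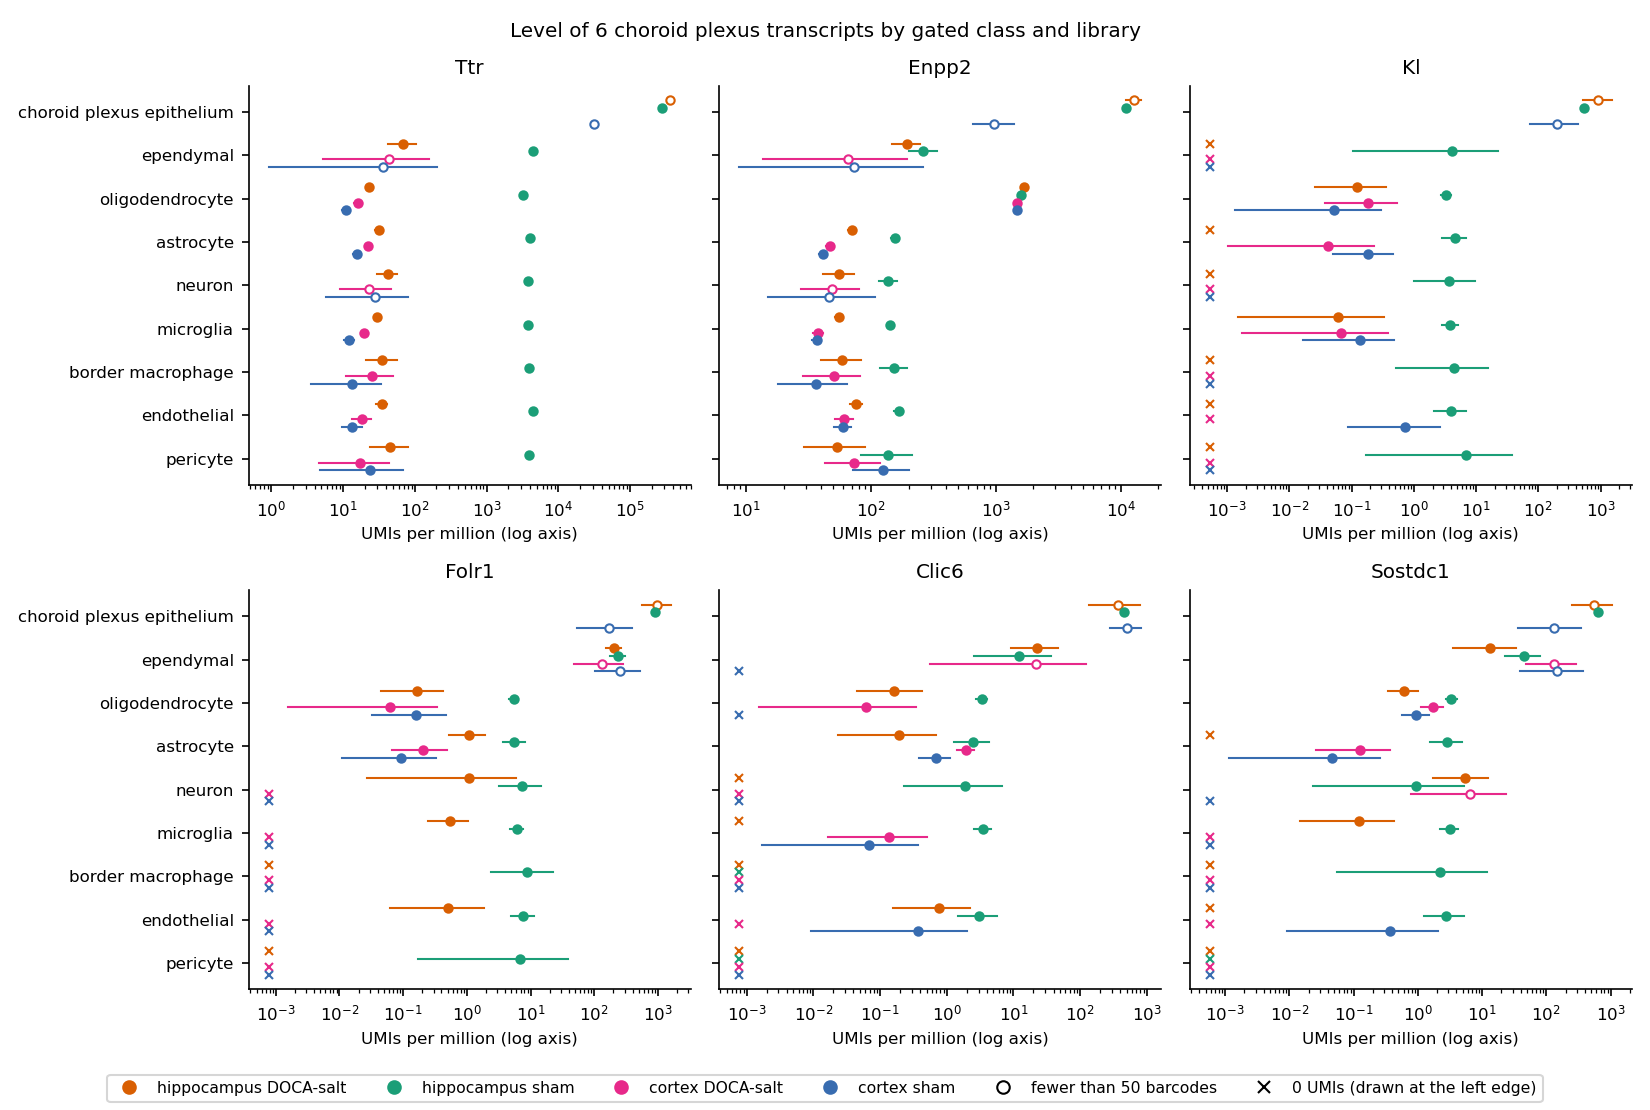
Level of each member by cell class in the 4 libraries, in CPM on a log axis. Points are class sums with exact 95% Poisson intervals, open points are classes of fewer than 50 barcodes, and crosses mark classes with 0 UMIs. In hippocampus sham, Ttr lies near 277766 CPM in the choroid plexus and between 3195 and 4375 CPM in the 8 other classes of at least 50 barcodes.

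The gate separated barcodes by their Ttr although Ttr was not used in it. In hippocampus sham, the 10064 barcodes with no choroid plexus marker above background held a median of 0.344% Ttr, and the 275 with 1 such marker held 0.399%. Just outside the gate, the 43 barcodes with 2 markers stood at 11.2%, and just inside, the 37 with 3 markers stood at 22.9%. With all 10 markers, 28 barcodes stood at 37.3%, and their median depth was 30538 UMIs against 2772 UMIs with 3 markers. Barcodes with 2 markers spanned 0.304% to 38.8% (5th to 95th percentile), so some with a high Ttr share stayed outside the gate. In the whole library, 90 kept barcodes with fewer than 3 markers exceeded 2% Ttr.

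**Figure D2:**
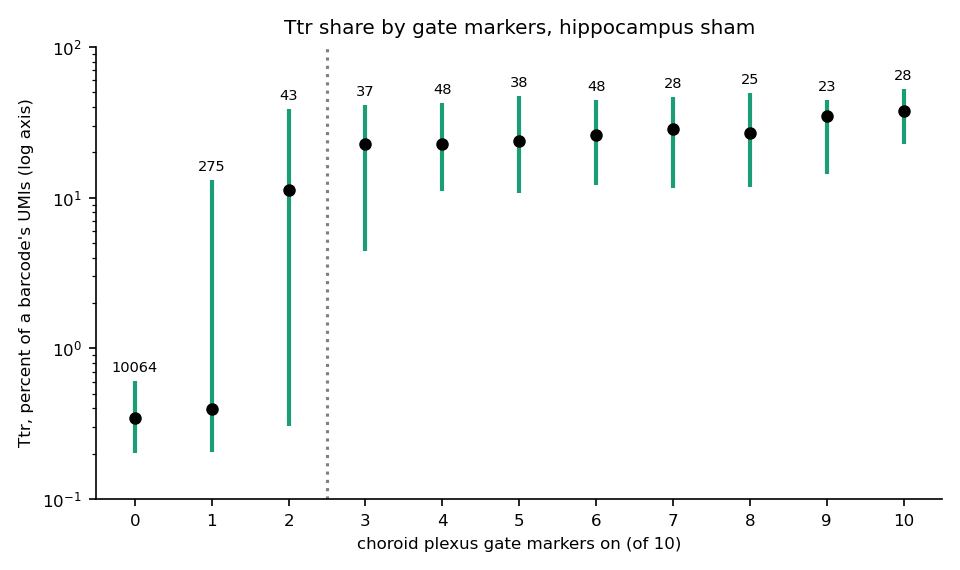
Ttr as a percent of a barcode's UMIs (log axis) against the number of choroid plexus markers above background, hippocampus sham library. Dots are medians, bars run from the 5th to the 95th percentile, numbers give barcodes, and the dotted line is the gate of 3 markers. The median rises from 0.344% with no marker to 37.3% with 10.

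A large share of each member's UMIs fell outside choroid plexus barcodes. The hippocampus sham library held 1262053 Ttr UMIs against 8086 in hippocampus DOCA-salt, 2640 in cortex DOCA-salt and 2167 in cortex sham. Of those in hippocampus sham, 52.9% lay in the 225 choroid plexus barcodes and 77.3% when the barcodes mixed with another class were added. Of these 50 mixed barcodes, 15 carried oligodendrocyte, 14 ependymal, 13 endothelial, 6 pericyte and 2 astrocyte markers. Shares were higher for the other epithelial members: with mixed barcodes they came to 82.3% for Kl, 82.5% for Folr1, 80.4% for Clic6 and 87.9% for Sostdc1. A gate of 2 markers in place of 3 would put 32.1% of the kept barcodes' Ttr UMIs in choroid plexus alone, against 54.8%. Enpp2 differed, with 36.0% in those barcodes and 53.0% in oligodendrocytes.

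In hippocampus DOCA-salt, 2 barcodes held 72.2% of the library's Ttr UMIs. Of Enpp2 there, 86.5% lay in oligodendrocytes, and of Folr1, 59.7% lay in gated classes other than choroid plexus and oligodendrocytes. In cortex DOCA-salt, 53.4% of Ttr UMIs lay in barcodes that the filters had removed, which included the choroid plexus barcode called a doublet (1324 Ttr UMIs). For each Ttr UMI inside a barcode gated as choroid plexus, alone or with another class and before filters, 0.386 lay outside in hippocampus DOCA-salt, 0.264 in hippocampus sham, 0.994 in cortex DOCA-salt and 1.29 in cortex sham. The outside counts include barcodes below the gate with more than 2% Ttr. Cortex sham had 1 of these, with 336 Ttr UMIs, and hippocampus DOCA-salt 2, with 116 and 227. Hippocampus sham had 109 and cortex DOCA-salt 0.

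**Figure D3:**
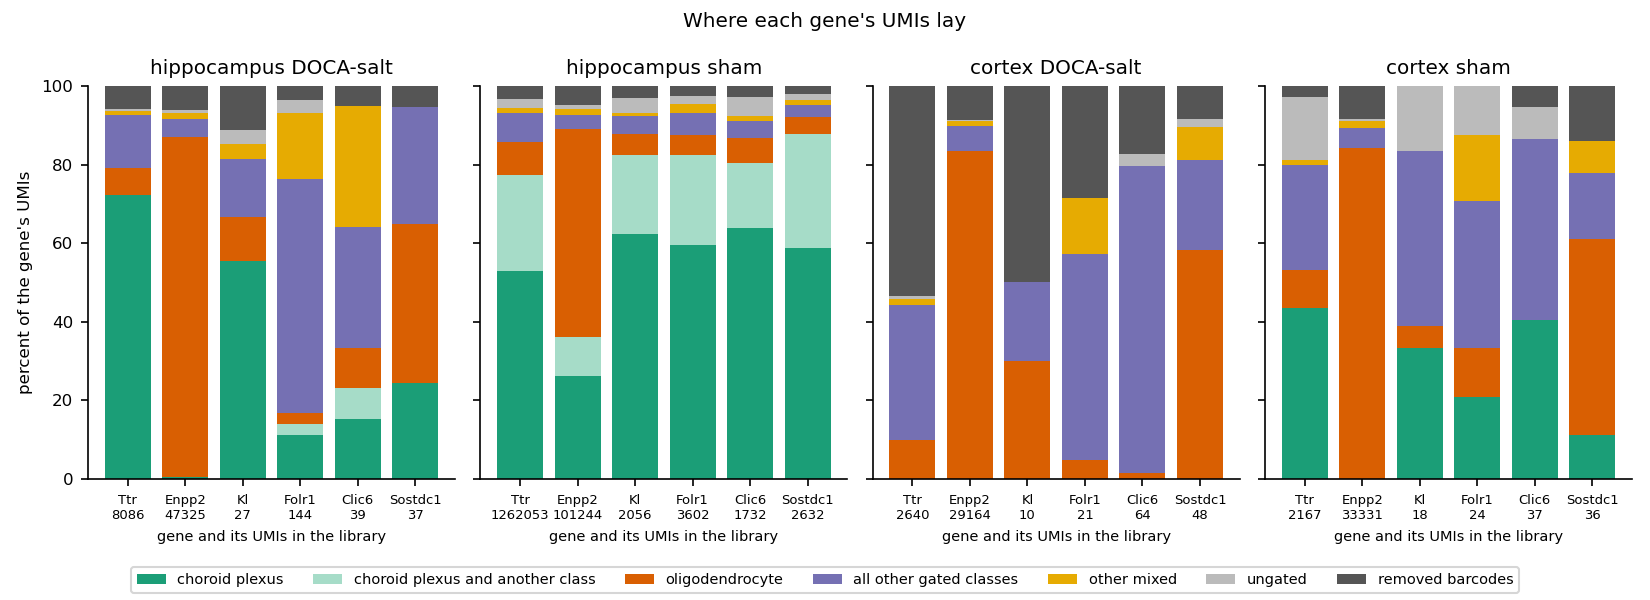
Where each member's UMIs lay in each library, as stacked percentages of the gene's total. In hippocampus sham the choroid plexus barcodes took 52.9% of Ttr and 26.2% of Enpp2, and oligodendrocytes took 53.0% of Enpp2.

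Outside the epithelium, Ttr of the hippocampus sham library lay at nearly one level in the larger classes. Among 8 classes of at least 50 barcodes it ran from 3195 CPM in oligodendrocytes to 4375 CPM in endothelial cells, a 1.37-fold span. In descending order came endothelial, ependymal (4360 CPM), astrocyte (4015), border macrophage (3918), pericyte (3857), microglia (3796), neuron (3720) and oligodendrocyte. Only 2 steps of that order had intervals that left out 1: ependymal over astrocyte at 1.09 (1.02 to 1.16) and neuron over oligodendrocyte at 1.16 (1.13 to 1.201). Classes of fewer than 50 barcodes spread more widely, from 3414 CPM in T or NK cells (30 barcodes) to 7724 CPM in oligodendrocyte precursors (11 barcodes). Among these, erythroid barcodes, which should hold no transthyretin RNA of their own, had Ttr in 38 of 38, at 4104 CPM. Haemoglobin made up 86.5% of the UMIs of these erythroid barcodes, so their CPM cannot be set beside that of the other classes.

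In the other 3 libraries the level outside the epithelium was lower by orders of magnitude. Classes of at least 50 barcodes are given. In hippocampus DOCA-salt it ran over 11 such classes from 10.1 CPM in B cells to 68.6 CPM in ependymal cells. There no step between neighbours had an interval that left out 1. In cortex DOCA-salt it ran over 6 such classes from 16.2 CPM in oligodendrocytes to 25.1 CPM in border macrophages. In cortex sham the same 6 classes ran from 11.04 CPM in oligodendrocytes to 23.5 CPM in pericytes, and in both cortex libraries no neighbouring classes differed beyond their counting intervals. Classes further apart in the order did differ: astrocytes stood above oligodendrocytes with intervals that did not overlap. The levels were 31.3 (28.0 to 34.9) against 22.8 CPM (21.0 to 24.8) in hippocampus DOCA-salt. They were 21.9 (20.1 to 23.9) against 16.2 CPM (14.3 to 18.3) in cortex DOCA-salt. In cortex sham they were 15.5 (13.9 to 17.2) against 11.04 CPM (9.59 to 12.6). The rank of the libraries was the same in microglia, oligodendrocytes, astrocytes and endothelial cells, with sham above DOCA-salt in the hippocampus, and both above the cortex, where DOCA-salt stood above sham.

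Microglia are immune cells and not a known source of transthyretin. Ttr was found in 2273 of 2275 microglia of hippocampus sham (99.9%), in 17.1% of those of hippocampus DOCA-salt, in 11.3% of cortex DOCA-salt and in 6.98% of cortex sham. With every barcode thinned to 2000 UMIs the shares were 99.9%, 6.07%, 4.24% and 2.43%. The order of the libraries was the same at equal depth. Enpp2 was found in 51.6% of hippocampus sham microglia, 29.3% of hippocampus DOCA-salt, 20.7% of cortex DOCA-salt and 19.5% of cortex sham. Folr1, Kl, Clic6 and Sostdc1 were found in 3.21%, 2.11%, 1.89% and 1.58% of hippocampus sham microglia. In the other 3 libraries each of these 4 was found in at most 0.348% of microglia.

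Ttr counts in a barcode followed its depth. Each class was divided by depth into 5 groups of equal size. From the shallowest to the deepest group of hippocampus sham microglia, median depth rose 2.62 times and mean Ttr UMIs per barcode rose 2.79 times. The CPM of the deepest group, taken over summed UMIs, was 0.917 times that of the shallowest. In astrocytes depth rose 6.06 times and Ttr 5.34 times. In endothelial cells depth rose 6.12 times and Ttr 4.95 times, with CPM at 0.766 times. Within choroid plexus barcodes depth rose 11.6 times, Ttr 13.9 times and CPM 1.06 times. The CPM of Ttr was therefore lower in the deepest than in the shallowest group of all 3 non-epithelial classes named here, and not in the epithelium.

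**Figure D4:**
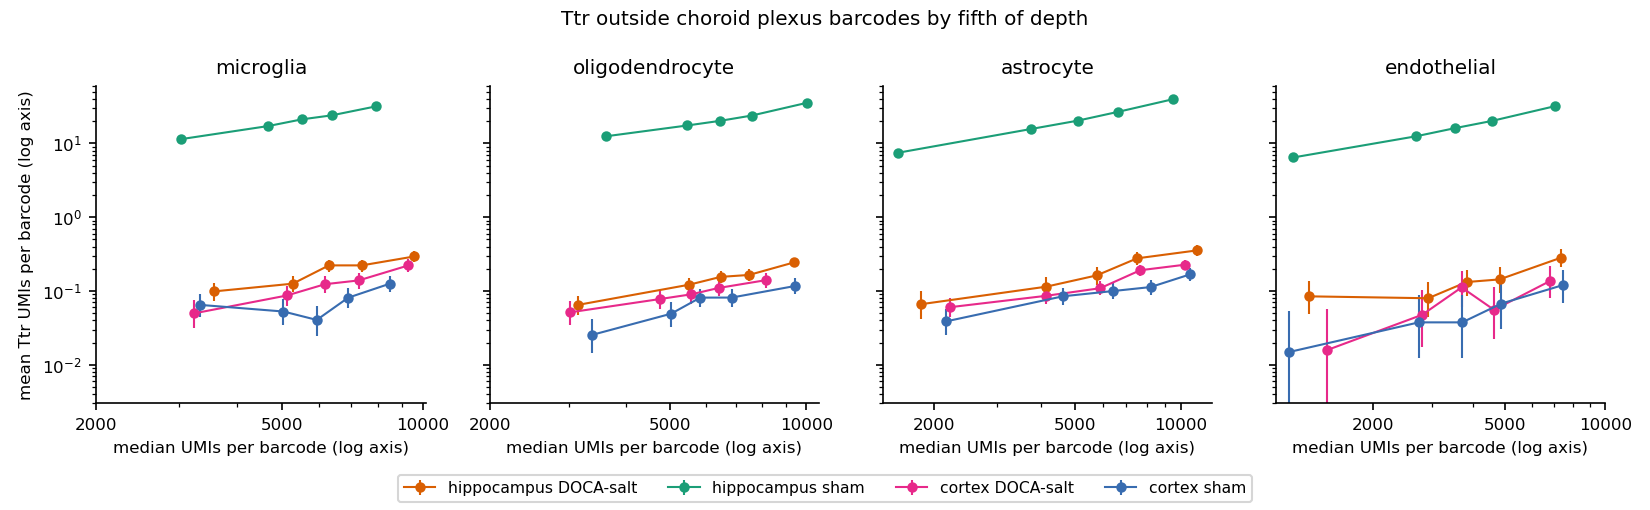
Mean Ttr UMIs per barcode against median depth in 5 groups of each class by depth, log axes, with exact 95% Poisson intervals. In hippocampus sham microglia, 2.62 times the depth came with 2.79 times the Ttr UMIs.

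The first comparison set DOCA-salt against sham within the hippocampus. Ttr was lower in the DOCA-salt library in 8 of 8 classes with at least 50 barcodes in both libraries, by 63.5-fold in ependymal cells to 140-fold in oligodendrocytes. Microglia held 498 against 48093 UMIs, or 29.9 against 3796 CPM, 127-fold lower (116 to 139). The choroid plexus barcodes of the same libraries numbered 2 and 225. Fewer epithelial barcodes, less RNA per cell and a different treatment cannot be told apart with 1 library per group.

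In hippocampal microglia all 6 members passed 2-fold downwards with DOCA-salt, as did 1.88% of 14093 genes. A gene was counted with at least 20 UMIs in both libraries together, a minimum that Kl, Folr1, Clic6 and Sostdc1 reached through the sham library, so the count is given as a description. Enpp2 stood at 55.1 against 142 CPM, 2.57-fold lower (2.38 to 2.79). Kl held 1 against 49 UMIs, 64.5-fold lower (11.05 to 2599), and Folr1 9 against 77, 11.3-fold lower (5.63 to 25.6). Sostdc1 held 2 against 40 UMIs, 26.3-fold lower (6.83 to 225). Clic6 held 0 against 44 UMIs, at least 19.3-fold lower with the floor of 3 counts in the DOCA-salt class sum. The 4 rarer members thus rest on 77 UMIs or fewer in each class sum. With barcodes thinned to 2000 UMIs the log2 ratio of Folr1 was -5.20 against -3.49.

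Oligodendrocytes gave the same picture for 5 of 6 members (1.74% of genes were at least 2-fold lower there). Enpp2, which these cells make, was the exception, at 1685 against 1599 CPM (ratio 1.05, 1.04 to 1.07). Folr1 held 4 against 182 UMIs, Kl 3 against 112, Clic6 4 against 112 and Sostdc1 15 against 112. In astrocytes the Enpp2 ratio was 0.454, and DOCA-salt against sham gave 324 and 19491 UMIs of Ttr, 0 and 22 of Kl, 11 and 27 of Folr1, 2 and 12 of Clic6 and 0 and 14 of Sostdc1. In endothelial cells the 2 libraries held 136 and 14228 UMIs of Ttr and 297 and 544 of Enpp2, and no more than 25 of any other member. Over all classes other than choroid plexus 5 of 6 were lower (1.23%), and Enpp2 stood at 731.3 against 1006 CPM, in libraries that differ in their share of oligodendrocytes.

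Ependymal cells line the ventricle beside the plexus, and there Folr1 did not follow Ttr. It stood at 203 CPM (62 UMIs) in DOCA-salt and 234 CPM (57 UMIs) in sham, a ratio of 0.865 (0.594 to 1.26). Enpp2 was at 0.733 (0.506 to 1.06), with 59 and 64 UMIs. Sostdc1 was lower, at 0.289 (0.0672 to 0.976), from 4 and 11 UMIs. Clic6 was at 1.86 (0.424 to 11.1), from 7 and 3 UMIs, and Kl held 0 and 1. Ttr in the same barcodes was at 21 and 1061 UMIs.

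In the cortex, Ttr went the other way at a far lower level. It was higher in the DOCA-salt library in 5 of the 6 classes with at least 50 barcodes in both libraries, with ratios from 0.733 to 1.91. Microglia held 286 against 180 UMIs, 19.7 against 12.2 CPM, a ratio of 1.62 (1.34 to 1.97). Oligodendrocytes gave 1.47 (1.22 to 1.77) and astrocytes 1.42 (1.23 to 1.63), and the intervals of the other 3 of these classes included 1. Among smaller classes, erythroid barcodes held 17 against 2 UMIs, a ratio of 5.26 (1.25 to 46.9). Neurons held 7 against 3, a ratio of 0.825 (0.188 to 4.95). The cortex libraries held 1 choroid plexus barcode each before filters, with 1324 Ttr UMIs in DOCA-salt and 945 in sham. A further kept barcode of cortex sham, outside the gate with 2 choroid plexus markers, held 336 Ttr UMIs, 3.09% of its 10876. No barcode below the gate in cortex DOCA-salt exceeded 2% Ttr. The part of these barcodes in the ratios was not tested.

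Enpp2 was nearly level in the cortex, at 1.004 in oligodendrocytes, 1.03 in microglia and 1.13 in astrocytes (1.04 to 1.24). Of the members with at least 20 UMIs in cortical microglia, 0 of 2 passed 2-fold in either direction (2.54% of genes were at least 2-fold higher and 0.8% lower). In astrocytes Clic6 passed it (3.2% of genes higher), with 47 UMIs in DOCA-salt against 15 in sham, 1.96 against 0.684 CPM and a ratio of 2.87 (1.57 to 5.52).

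Between tissues, the sham libraries differed most in Ttr. It was 164-fold to 324-fold higher in hippocampus than in cortex over 6 classes of at least 50 barcodes, and 312-fold in microglia (270 to 364). All 6 members were at least 2-fold higher in hippocampal microglia (4.04% of genes), and in oligodendrocytes 5 of 6 were (2.59%), with Enpp2 at 1.08. Kl, Folr1, Clic6 and Sostdc1 again reached the minimum of 20 UMIs through hippocampus sham. These comparisons share the hippocampus sham library with the treatment comparison. Between the DOCA-salt libraries, Ttr was 1.40-fold to 2.65-fold higher in hippocampus in 6 classes of at least 50 barcodes.

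Each member was then set against Ttr within the classes of 1 library. In choroid plexus barcodes of hippocampus sham there were 39.7 Enpp2, 3.20 Folr1, 2.31 Sostdc1, 1.92 Kl and 1.66 Clic6 UMIs per 1000 Ttr UMIs. In microglia Enpp2 per Ttr was 0.941 times that of the epithelium (0.897 to 0.987). The 4 rarer members were lower against Ttr in microglia: Clic6 at 0.552 times (0.399 to 0.746), Kl at 0.531 (0.391 to 0.706), Folr1 at 0.4996 (0.393 to 0.627) and Sostdc1 at 0.359 (0.256 to 0.492). All 4 intervals lay below 1.

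Astrocytes gave 0.588 for Kl, 0.432 for Folr1, 0.372 for Clic6 and 0.310 for Sostdc1, and endothelial cells gave 0.476, 0.548, 0.424 and 0.273. All of these intervals lay below 1. Enpp2 per Ttr in microglia includes Enpp2 that is also present where Ttr is scarce, such as 55.1 CPM in hippocampus DOCA-salt. Taken on the sham minus DOCA-salt difference in CPM, Enpp2 per Ttr came to 0.580 times the epithelium's in microglia, 0.533 in astrocytes and 0.531 in endothelial cells. On the same difference in microglia, Clic6 came to 0.556, Kl to 0.527, Folr1 to 0.459 and Sostdc1 to 0.348.

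Other departures lay above 1. Ependymal cells had 16.8 times the epithelium's Folr1 per Ttr (12.7 to 21.8) and 4.48 times its Sostdc1 (2.23 to 8.04). Oligodendrocytes had 12.6 times its Enpp2.

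**Figure D5:**
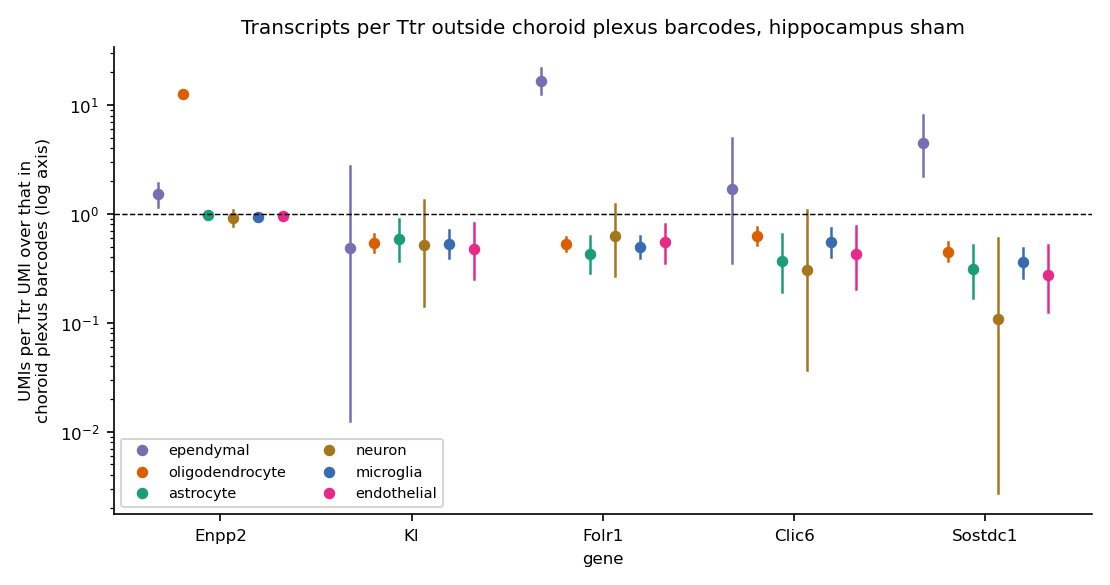
UMIs of each member per Ttr UMI in classes of the hippocampus sham library, relative to choroid plexus barcodes (log axis), with 95% intervals. The dashed line at 1 is the choroid plexus ratio. Kl, Folr1, Clic6 and Sostdc1 lie below it in microglia (0.359 to 0.552), and Folr1 in ependymal cells lies above it at 16.8.

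Some counts outside the epithelium were of one class and recurred where Ttr was scarce. Enpp2 in oligodendrocytes stood at 1685, 1599, 1487 and 1481 CPM (DOCA-salt then sham in the hippocampus, then DOCA-salt and sham in the cortex). These were 26.2, 10.6, 33.1 and 35.7 times the level in the other gated classes. Oligodendrocyte precursors also held Enpp2, at 311, 854, 458 and 320.4 CPM in 14, 11, 8 and 8 barcodes. Enpp2 in oligodendrocytes thus varied little between libraries, while the level around it was highest in hippocampus sham.

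Folr1 marked the ependymal class in all 4 libraries. It stood at 203, 234, 132 and 254 CPM there in the same order of libraries, from 62, 57, 6 and 7 UMIs. It was detected in 26 of 65, 29 of 50, 5 of 7 and 3 of 5 ependymal barcodes. The fold over the other gated classes was 425 (268 to 690.2) in hippocampus DOCA-salt, 40.8 (30.2 to 54.2) in hippocampus sham, and in the cortex rested on 6 and 7 UMIs. The lower fold in hippocampus sham came with a higher level in the rest, 5.74 against 0.477 CPM in hippocampus DOCA-salt.

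Sostdc1 was also found in ependymal barcodes, with 4, 11, 6 and 4 UMIs. In the cortex it was higher in oligodendrocytes than in the other gated classes, from 28 UMIs in 24 barcodes of DOCA-salt (6.64-fold, 3.20 to 14.8) and 18 UMIs in 16 barcodes of sham (6.42-fold, 2.44 to 19.8). In hippocampus DOCA-salt that fold was 1.95 (0.837 to 4.70). Neurons of that library held 5 Sostdc1 UMIs over 107 barcodes, 5.34 CPM, which was 8.66 times the oligodendrocyte level (2.46 to 25.1). Neurons of hippocampus sham held 1 over 144 barcodes. In the cortex, neurons held 2 over 28 barcodes of DOCA-salt and 0 over 12 of sham.

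Clic6 was found in cortical astrocytes, with 47 UMIs in 37 of 3894 barcodes of DOCA-salt and 15 UMIs in 13 of 3360 of sham. These were 17.2 times (6.27 to 65.6) and 12.8 times (2.98 to 116) the level of the other gated classes. In hippocampus DOCA-salt, 1660 astrocytes held 2 Clic6 UMIs, 0.672 times the rest (0.0741 to 2.93). Clic6 in astrocytes was thus seen in both cortex libraries, in 0.950% and 0.387% of barcodes. In neither hippocampus library did it stand above the other classes, at 0.743 times the rest (0.377 to 1.33) in sham. The rest of hippocampus sham stood at 3.33 CPM, above the astrocytes of both cortex libraries. That library therefore cannot show whether a level of cortical size was absent from its astrocytes. The Clic6 level in hippocampus DOCA-salt astrocytes was 0.193 CPM (0.0234 to 0.698). That lay below the 1.96 CPM (1.44 to 2.61) of cortex DOCA-salt, while the interval of cortex sham, 0.684 CPM (0.383 to 1.13), overlapped it. Kl had no class of at least 50 barcodes with more than 4 UMIs outside hippocampus sham. Among smaller classes, fibroblasts of hippocampus DOCA-salt held 3 Kl UMIs in 2 of 8 barcodes. That was 65.8 CPM, 970 times the other gated classes (142 to 5735). Fibroblasts held 1 Kl UMI over 9 barcodes of hippocampus sham and 0 over 2 of cortex DOCA-salt, and cortex sham had no fibroblast barcode.

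Leaving out members and gate markers, the genes whose level was most like that of Ttr over 32 class sums were 2900040C04Rik (Pearson r = 0.92 on log2(CPM + 1)), Defb11, Prr32, Sulf1 and Ecrg4 (0.81 each), Vpreb1 and Wdr86 (0.80 each) and Iglc1 (0.74). The 32 sums come from 4 libraries and share their depth and free RNA, so r is a description over 18147 genes. Ecrg4 stood at 2978 CPM in choroid plexus barcodes of hippocampus sham and 41.6 CPM in its other classes. Iglc1, an immunoglobulin light chain gene, went against the epithelium, at 58.2 CPM inside it and 220.5 CPM outside. Among the members, r with Ttr was 0.90 for Kl, 0.79 for Folr1, 0.72 for Sostdc1, 0.70 for Clic6 and 0.52 for Enpp2.

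Genes that work beside the members were read in the same choroid plexus barcodes of hippocampus sham. Among genes of thyroid hormone and retinol handling, the organic anion transporter Slco1c1 (2.36-fold) and the retinol transporter Stra6 (8.37-fold) were at least 2-fold higher in the epithelium. Dio2 and Thra were at least 2-fold lower. Of 8 LPA genes, the phosphatase Plpp1 was higher (2.91-fold) and Lpar1, Lpar4, Lpar6 and Plpp3 were lower. Of the klotho partners and sheddases, none was at least 2-fold higher and Fgfr2, Fgfr3, Adam10 and Adam17 were lower. Fgfr4 held 0 UMIs in the epithelium against 25 elsewhere, too few to place it. A gene called lower here can be one that other brain cells make in quantity, and 47% of all genes tested were at least 2-fold lower.

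These shares are to be read against 11.2% of all genes at least 2-fold higher and 47% lower. Of 8 genes of folate uptake and use, 3 were higher: the reduced folate carrier Slc19a1 (3.41-fold), the proton-coupled folate transporter Slc46a1 (2.21-fold) and Mthfd1 (2.71-fold), and none was lower. Of 10 genes of BMP and Wnt signalling, the ligands Bmp6 (33.2-fold), Bmp4 (20.01-fold) and Bmp7 (14.6-fold) were higher and Bmp2, Bmpr1b and Lrp4 lower. Of 14 genes of ion and water transport, 6 were higher, with the water channel Aqp1 at 100-fold and the sodium pump subunit Atp1b1 at 24.2-fold, and 6 were lower, Car2 and Clic4 among them. All 20 other choroid plexus genes measured were higher, with a median log2 ratio of 5.90 against -0.91 over all genes.

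The same lists were then read between treatments over the other classes of the hippocampus. Of the other choroid plexus genes 10 of 19 measured passed 2-fold downwards with DOCA-salt, as did 1.23% of all genes, and all 10 gate markers did. Genes abundant in hippocampus sham reach the minimum of 20 UMIs through that library, as above. Of the ion and water transport genes only Aqp1 was lower. No gene was lower in the thyroid hormone, LPA, klotho, folate, and BMP and Wnt lists, with 9, 9, 6, 8 and 10 genes measured. Lists of that size are too small to tell 0 from the 1.23% of all genes. In the same order of lists, 2, 2, 1, 2 and 0 genes were at least 2-fold higher, where 1132 of 18150 genes were. Stromal and vessel genes of the plexus gave 1 of 7 lower, Lum.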

How the data were processed

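The labels describe droplet 3′ libraries (SeekOne DD kit). The authors deposited counts of UMIs per gene and barcode, and GRCm38, STAR, fastp, Subread and Seurat appear in the submitters' processing notes. Roles, versions, annotation release and counting strand are not given in the sources used here.

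Computed here (python 3.11.15, numpy 2.4.6, scipy 1.17.1, pandas 2.3.3, scanpy 1.11.5, matplotlib 3.10.9): barcodes with under 300 genes or over 20% mitochondrial UMIs were left out (48 to 163 per library), as were 480 to 737 doublets called by Scrublet at an expected rate of 0.08. A marker counted as present where its UMIs exceeded a Poisson background at p 0.01, at that marker's rate over barcodes with few markers of its class, and 3 present markers placed a barcode in a class. Barcodes with 2 classes were set aside as mixed. This gate was set after the data were seen. CPM is a gene's UMI sum in a class divided by all UMIs of that class and scaled to 1000000. Sums have exact Poisson intervals, and ratios exact conditional binomial intervals (95%). Background shares count genes past 2-fold among those with at least 20 UMIs in both groups together. Named genes were the members, the 8 genes (other than gate markers) with the highest correlation with Ttr over class sums of at least 50 barcodes, and listed pathway genes, of which some are not reported here. Members and lists were chosen with earlier results of these data known. The ratio code was tested on simulated data. Alternatives varied the filter, doublets, gate, mixed barcodes, weighting, depth, denominator and background minimum.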

Additional observations from a re-analysis of the deposited data

Results flagged for a closer look

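DOCA-salt against sham went in opposite directions in the hippocampus and the cortex for 5 values whose counting intervals left out 1 in both tissues. Each rests on 1 library per group, so the difference between tissues was not tested. For Ttr, the DOCA-salt over sham ratio of CPM was 0.00787 in the hippocampus and 1.62 in the cortex in microglia. In oligodendrocytes the Ttr ratios were 0.00715 and 1.47, and in astrocytes 0.0078 and 1.42. Enpp2 in astrocytes gave 0.454 and 1.13. Clic6 in astrocytes gave 0.0782, from 2 against 12 UMIs, and 2.87, from 47 against 15 UMIs. Choroid plexus barcodes before filters numbered 2 and 230 in hippocampus DOCA-salt and sham and 1 in each cortex library, and their part in these ratios was not tested.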

How the results depend on the processing

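No paired analysis was possible because each group is 1 library, and no replicate could be left out. Of 53 values of the main results under alternatives, 43 stayed within their counting interval or within 1.5 times the main count, and none changed sign. The 41 ratios past 2-fold kept their direction in every setting that gave them all, as did 27 of 27 at equal depth and 18 of 18 with mitochondrial, haemoglobin and member UMIs left out of the denominator. Ttr in hippocampal microglia ran from -7.02 to -6.94 (log2, DOCA-salt over sham), in cortical microglia from 0.60 to 0.82, and between sham tissues from 8.26 to 8.29. The share of kept hippocampus sham Ttr UMIs in choroid plexus barcodes left its interval in 7 of 8 settings: from 54.8% to 54.6% with a filter of 500 genes and 10% mitochondrial UMIs, 53.1% with doublets kept, 32.1% with 1 marker fewer, 61.6% with 2 more, 77.2% with mixed barcodes in their top class, 48.1% with barcodes weighted equally and 52.0% at 2000 UMIs each. Ttr in hippocampus sham microglia was 3868 CPM with equal weights, against 3796. Genes past 2-fold in hippocampal microglia numbered 587, against 3815 with no minimum above 1 UMI and 1713 past 1.5-fold. Enpp2 in hippocampal ependymal cells, whose interval includes 1, had a log2 ratio of -0.45 but 0.18 with 1 marker fewer, 0.39 with equal weights and 0.09 at 2000 UMIs. The log2 ratio of Folr1 in endothelial cells of the hippocampus was -3.91 but -4.89 with mixed barcodes placed. Clic6 in cortex DOCA-salt astrocytes was 1.96 CPM but 3.61 with equal weights and 3.50 at 2000 UMIs. Causes were not tested. Depth limits Kl, Folr1, Clic6 and Sostdc1 outside hippocampus sham, where class sums hold few UMIs.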
